A study of Mus musculus with 8 samples.

Results

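The AP-1 transcription factor family was described across 8 bulk RNA-seq libraries of mouse immortalised granulocyte-macrophage progenitors (iGMPs). Its members were chosen by name as the 10 genes Fos, Fosb, Fosl1, Fosl2, Jun, Junb, Jund, Batf, Batf2 and Batf3, out of 34199 genes in the count tables. All 10 were found. The cells carry Lys-GFP-ER-HoxA9, a HOXA9 transcription factor fused to the ligand-binding part of the estrogen receptor together with a GFP reporter under the lysozyme promoter, on a C57Bl/6 background, and HOXA9 is active in them only while estradiol is present. There were 4 conditions with 2 libraries each. Uninduced cells were taken at 0 h with estradiol at 150 ng/ml. CAF-1 OFF cells kept 150 ng/ml estradiol and received IPTG at 500 µM for 48 h, which switches on an shRNA against Chaf1b, a subunit of the histone chaperone CAF-1. IPTG-treated control cells kept estradiol and received IPTG for 48 h with a control vector, at a dose the labels do not give. HOXA9 OFF cells were washed free of estradiol and cultured for 48 h, so the washes and the loss of HOXA9 activity cannot be told apart. The study worked with clonal lines from transduced bone marrow. Independent sub-clones are mentioned for the RNA-seq in the study's supplement, but the labels tie no library to a clone or culture. The p-values therefore measure only the spread between these libraries, and how much of it is technical is not known.

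AP-1 factors are basic leucine zipper (bZIP) proteins that bind DNA as dimers. FOS proteins do not dimerise with each other and work with a JUN partner, JUN proteins also pair among themselves, and BATF proteins pair with JUN and with IRF factors at composite sites. Several members are immediate early genes, which are transcribed within minutes of growth factor, cytokine or stress signals through MAP kinases, and in myeloid cells AP-1 takes part in monocyte and macrophage differentiation and in inflammatory gene expression.

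Gene counts summed to between 14044284 and 22423837 per library, and 13080 genes passed the filter on low counts and were tested. Levels of one gene between libraries are given as CPM, a gene's reads relative to the sum of reads over genes in its library, scaled by edgeR's TMM method. As a check of the labels, Chaf1b was at 96.8 and 100.3 CPM in uninduced libraries and 95.1 and 101.7 CPM in IPTG-treated control libraries, against 18.7 and 9.72 CPM in CAF-1 OFF libraries. HOXA9 OFF libraries held 48.3 and 41.0 CPM of Chaf1b. Hoxa9 reads do not check the HOXA9 OFF label, since the fusion is controlled by its ligand, and they were higher there (481 and 450 CPM) than in uninduced cells (234 and 235 CPM). Progenitor markers such as Kit and Cd34 were detected in every library (8 of 8 markers above 3 counts). One IPTG-treated control library, replicate 1, had 14.6% of its reads outside annotated genes, against 5.30% to 7.79% in the other 7.

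Promoter sequences of the members are shown first because several of them moved together, as described further on. RefSeq promoters (build GRCm38.p6) were matched by symbol for 8 of the 10 members, all but Fosl1 and Batf2, and cover 250 bases before and 50 after the annotated start. Both strands were searched for the TRE, TGACTCA, and the CRE, TGACGTCA, the sites that AP-1 and CREB/ATF dimers bind, and for the CArG box of serum response factor. None of the 8 held a match in this window, and sites farther upstream were not searched. Of all 32851 promoters, 5.2% held the TRE, 1.79% the CRE and 1.63% the CArG box. After that, 3 more patterns were searched. Jun held TGACATCA and TTACCTCA, the variant sites described in its own promoter, which occurred in 3.62% and 0.89% of all promoters. The shorter TGACG, which is also contained in the full CRE, was present in Fos (2 matches), Fosb, Junb and Batf, and in 20.8% of all promoters. The 250 bases before the start are given below, 5′ to 3′ on the gene's strand, for Fos (chr12:85473640-85473889, plus strand), Jun (chr4:95052223-95052472, minus strand) and Fosl2 (chr5:32136222-32136471, plus strand). Fos and Jun are the prototypes of their classes and were both called higher in HOXA9 OFF cells, and Fosl2 was the member called under both perturbations. Capitals mark TGACG in Fos and the pair of variant sites in Jun, and Fosl2 held none of the 6 patterns.
Fos: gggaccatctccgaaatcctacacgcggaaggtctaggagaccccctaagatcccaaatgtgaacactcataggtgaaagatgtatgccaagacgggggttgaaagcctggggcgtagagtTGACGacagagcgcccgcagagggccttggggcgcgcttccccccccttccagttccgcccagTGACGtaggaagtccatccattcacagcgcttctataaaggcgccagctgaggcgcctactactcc
Jun: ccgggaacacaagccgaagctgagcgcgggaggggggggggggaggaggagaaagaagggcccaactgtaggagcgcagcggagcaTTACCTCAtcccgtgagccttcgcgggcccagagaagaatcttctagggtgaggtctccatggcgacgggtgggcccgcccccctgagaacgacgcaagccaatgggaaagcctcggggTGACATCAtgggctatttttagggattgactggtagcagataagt
Fosl2: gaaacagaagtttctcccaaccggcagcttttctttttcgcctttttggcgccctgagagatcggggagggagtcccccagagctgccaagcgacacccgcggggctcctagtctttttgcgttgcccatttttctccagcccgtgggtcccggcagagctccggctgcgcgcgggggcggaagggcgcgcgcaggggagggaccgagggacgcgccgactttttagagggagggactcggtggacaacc
Counted from the annotated start, with -1 the last base before it, the matches in Fos began at -129 and -66, and those in Jun at -164 and -45. A match describes letters in this window and is not a measurement of binding.

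In HOXA9 OFF cells, 7 of the 9 tested members were higher than in uninduced cells, and 0 were called lower. They were Fos, Fosb, Fosl2, Jun, Junb, Jund and Batf2, with fold changes from 2.45 for Junb to 12.1 for Fos. A call needed a Benjamini-Hochberg false discovery rate (FDR) under 0.05 over all tested genes and a change of at least 1.5-fold in edgeR's quasi-likelihood test. Of all tested genes, 25.2% were called higher and 22.1% lower in this comparison. The median log2 fold change was 1.61 over the 9 tested members and 0.01 over all tested genes. Scaling by library size alone moved the latter to -0.18 and the share of calls that were higher from 53.3% to 42.3%, so changes are relative to that centre. Batf3 did not pass the filter on low counts and was not tested.

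**Figure D1:**
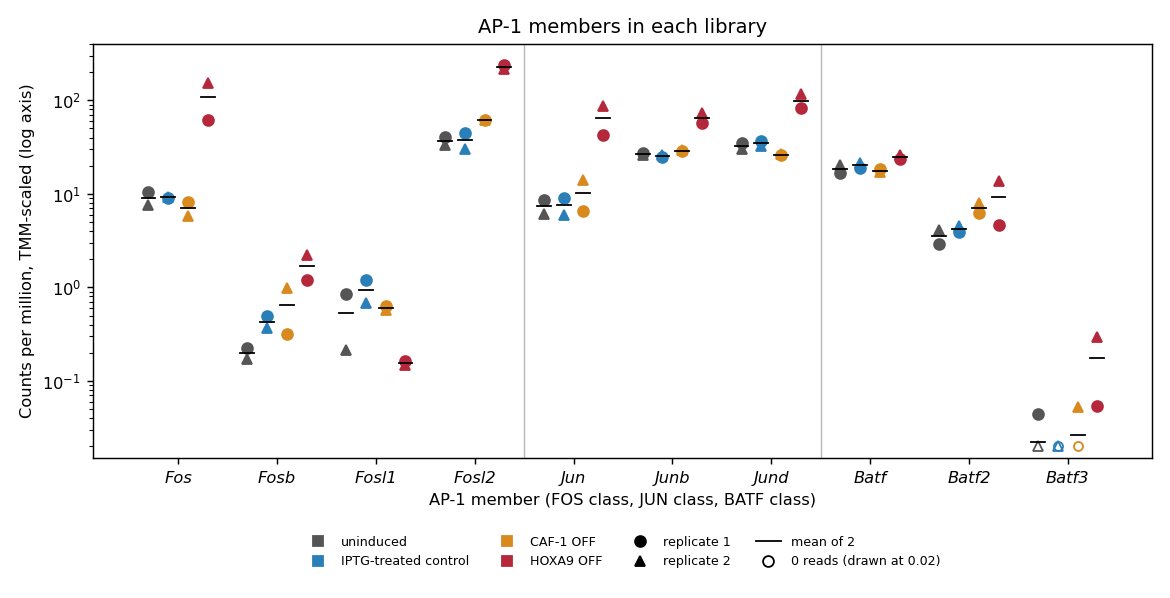
CPM (log axis, TMM-scaled) of the 10 AP-1 members in each of the 8 libraries. Points are libraries, colours are groups, symbols are replicates and the short lines are means of 2; the HOXA9 OFF libraries of Fos lie at 62.3 and 154 CPM, above the other 6.

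In the FOS class, Fos, the prototype immediate early gene (mm9, chromosome 12, 86814840 to 86818223, plus strand, 4 exon blocks), was at 10.4 and 7.53 CPM in uninduced libraries. The values were 9.11 and 9.20 CPM in IPTG-treated control, 8.26 and 5.80 CPM in CAF-1 OFF, and 62.3 and 154 CPM in HOXA9 OFF libraries. Both HOXA9 OFF libraries were above the other 6, and they differed from each other more than any of those did. The log2 fold change against uninduced cells was 3.59 ± 0.43 (SE, edgeR FDR 0.000266), or 12.1-fold. Without HOXA9 OFF replicate 2 it was 6.95-fold (log2 2.80, edgeR FDR 9.11e-05).

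Fosl2, which encodes FRA-2 (mm9, chromosome 5, 32438845 to 32460204, plus strand), was at 40.9 and 32.9 CPM in uninduced and 45.1 and 29.9 CPM in IPTG-treated control libraries. CAF-1 OFF libraries held 62.1 and 61.2 CPM and HOXA9 OFF libraries 240.6 and 215 CPM. The groups formed 3 steps that did not overlap, with both controls at the bottom and HOXA9 OFF at the top. Against uninduced cells Fosl2 rose by 2.62 ± 0.20 log2 units in HOXA9 OFF (6.17-fold, edgeR FDR 3.85e-05) and by 0.74 ± 0.19 in CAF-1 OFF (1.67-fold, edgeR FDR 0.0346). Against IPTG-treated control cells the CAF-1 OFF value was 0.72 ± 0.20 (1.65-fold, edgeR FDR 0.0422), and that call was lost without IPTG-treated control replicate 2 (log2 0.45, FDR 0.185), CAF-1 OFF replicate 1 or 2 (FDR 0.138 or 0.189) or uninduced replicate 1 or 2 (FDR 0.0574 or 0.0567). The call against uninduced cells depended on all 4 libraries compared. Leaving out uninduced replicate 1 or 2 gave FDR 0.0986 or 0.159, and leaving out CAF-1 OFF replicate 1 or 2 gave 0.121 or 0.164 in edgeR, with log2 fold changes of 0.90, 0.59, 0.71 and 0.75.

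Fosb, a FOS relative that is usually silent in resting cells, had 5 and 4 reads in uninduced, 7 and 6 in IPTG-treated control, 6 and 19 in CAF-1 OFF, and 22 and 45 in HOXA9 OFF libraries. HOXA9 OFF was highest and no library of it overlapped another group. At this depth the ratio of scaled counts in HOXA9 OFF over uninduced cells was 8.84 with a 95% interval from 4.39 to 20.2, which covers counting error only, and the edgeR log2 fold change was 3.08 ± 0.68 (FDR 0.00581). For CAF-1 OFF over uninduced cells the edgeR value was 1.70 ± 0.71 (FDR 0.127), and without CAF-1 OFF replicate 2 it was 0.67. Fosl1, which encodes FRA-1, had 19 and 5 reads in uninduced, 17 and 11 in IPTG-treated control, 12 and 11 in CAF-1 OFF, and 3 and 3 in HOXA9 OFF libraries. HOXA9 OFF libraries were the lowest of the 8, but the uninduced pair was widely spread and the difference was not called (log2 -1.72 ± 0.80, edgeR FDR 0.102). The ratio of uninduced over HOXA9 OFF counts was 3.37 with a 95% counting interval from 1.34 to 10.1. Without uninduced replicate 2 the difference was called (log2 -2.40, edgeR FDR 0.0339), and without uninduced replicate 1 it was -0.45 (edgeR FDR 0.702). Most of the Fosl1 exons, 1162 of 1707 bases, overlap Ccdc85b on the opposite strand. Whether the authors counted by strand is not stated, so how reads from the shared bases were counted is not known.

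In the JUN class, Jun, which encodes c-JUN (mm9, chromosome 4, 94715725 to 94718913, minus strand, a single exon), was at 8.63 and 6.07 CPM in uninduced and 9.11 and 5.95 CPM in IPTG-treated control libraries. CAF-1 OFF libraries held 6.58 and 14.1 CPM and HOXA9 OFF libraries 42.3 and 87.1 CPM. The HOXA9 OFF pair lay above all others, while CAF-1 OFF replicate 1 was within the controls and replicate 2 was above them. The rise in HOXA9 OFF was 3.14 ± 0.48 log2 units (8.79-fold, edgeR FDR 0.000909), and 5.75-fold without HOXA9 OFF replicate 2 (log2 2.52, edgeR FDR 0.00182). CAF-1 OFF differed from uninduced cells by 0.49 ± 0.46 (edgeR FDR 0.479), and by -0.16 without CAF-1 OFF replicate 2. Jun shares 232 exonic bases with the opposite-strand transcript BC042782, and Jund shares 543 with Gm11175.

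Junb, an immediate early JUN protein with weaker activation activity than c-JUN, was at 27.6 and 25.8 CPM in uninduced, 24.6 and 25.9 in IPTG-treated control, 28.4 and 29.2 in CAF-1 OFF, and 57.1 and 73.4 CPM in HOXA9 OFF libraries. The other 6 libraries lay within a few CPM of each other and the HOXA9 OFF pair stood above them. The rise was 1.29 ± 0.14 log2 units (2.45-fold, edgeR FDR 0.000186). Jund, a JUN protein expressed at steady levels in many cell types, was at 34.7 and 30.2 CPM in uninduced and 36.7 and 32.8 CPM in IPTG-treated control libraries. CAF-1 OFF libraries held 25.8 and 26.6 CPM, the lowest of the 8, and HOXA9 OFF libraries 81.8 and 116 CPM, the highest. Jund rose by 1.61 ± 0.18 in HOXA9 OFF (3.04-fold, edgeR FDR 0.000184). In CAF-1 OFF its log2 difference was -0.31 ± 0.18 from uninduced (edgeR FDR 0.247) and -0.41 ± 0.18 from IPTG-treated control cells (edgeR FDR 0.146), and neither was called.

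In the BATF class, Batf, a factor without a transactivation domain that pairs with JUN and IRF proteins, was at 16.5 and 20.2 CPM in uninduced and 18.9 and 21.5 CPM in IPTG-treated control libraries. CAF-1 OFF libraries held 18.4 and 17.1 CPM and HOXA9 OFF libraries 23.7 and 25.9 CPM. The HOXA9 OFF pair was the highest, by a margin below the 1.5-fold limit (log2 0.43 ± 0.16, 1.35-fold, edgeR FDR 0.0486), so Batf was not called. Batf2, an interferon-inducible relative, was at 2.94 and 4.11 CPM in uninduced, 3.96 and 4.48 in IPTG-treated control, 6.21 and 7.89 in CAF-1 OFF, and 4.67 and 13.7 CPM in HOXA9 OFF libraries. The HOXA9 OFF pair enclosed both CAF-1 OFF values. Its call in HOXA9 OFF (log2 1.39 ± 0.48, 2.61-fold, edgeR FDR 0.0375) rested on HOXA9 OFF replicate 2, without which the value was 0.41 (edgeR FDR 0.366), and it was also lost without any one of the 6 libraries of other groups (edgeR FDR 0.0572 to 0.18). In CAF-1 OFF the difference was 1.00 ± 0.47 (edgeR FDR 0.171), which was called without HOXA9 OFF replicate 1 or 2 (edgeR FDR 0.0333 or 0.0384). Batf3, known for its role in cross-presenting dendritic cells, had 0 or 1 read in 7 libraries and 6 in HOXA9 OFF replicate 2. With 3 counts as the floor, it was not detectable in the other 7 libraries at this depth.

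**Figure D2:**
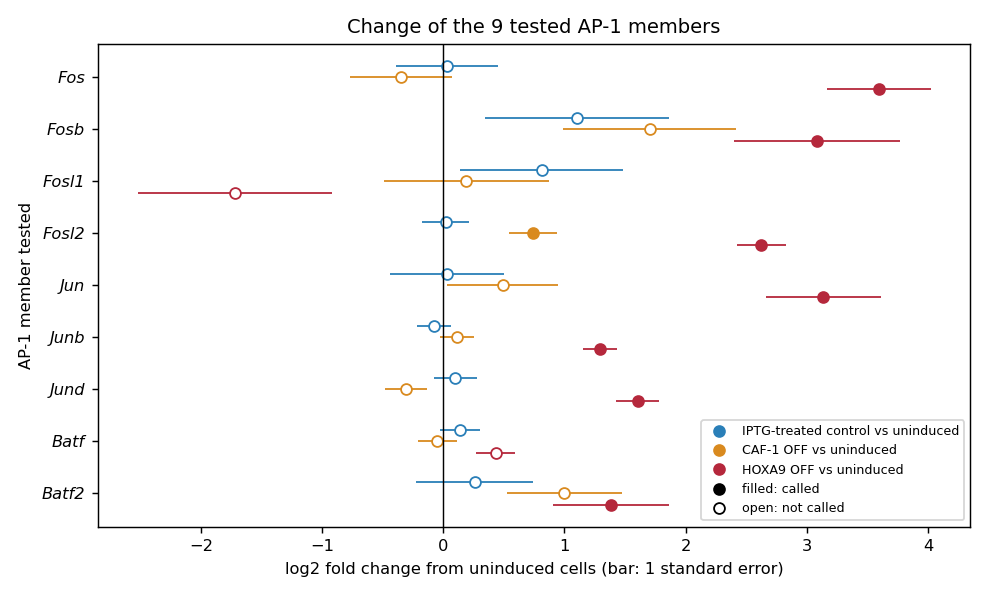
Log2 fold change from uninduced cells of the 9 tested AP-1 members (horizontal axis, bars of 1 standard error) in IPTG-treated control, CAF-1 OFF and HOXA9 OFF cells. Filled points were called: 7 in HOXA9 OFF, 1 (Fosl2) in CAF-1 OFF and 0 in IPTG-treated control cells.

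IPTG treatment with the control vector left no member called against uninduced cells (0 of 9 in edgeR, 0 by DESeq2, 0 with an unadjusted p under 0.05). Of all tested genes 0% were called by edgeR, and DESeq2 called 4. In edgeR 100 genes (0.76%) had an unadjusted p under 0.05, a share below that limit itself. The edgeR test was thus cautious in this comparison, and small effects could be missed. Fosb and Fosl1, counted at 19 reads or fewer in these libraries, stood at 1.10 ± 0.76 and 0.81 ± 0.67 log2 units, and the Fosl1 value was 2.09 without uninduced replicate 1 and 0.14 without uninduced replicate 2. Among the other 7 the largest values were those of Batf2 at 0.26 ± 0.48 and Batf at 0.14 ± 0.16, each within 1 standard error of 0. Fosl2 and Jun stood at 0.02 ± 0.20 and 0.03 ± 0.47.

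Of the 9 members, 1 was called in CAF-1 OFF against uninduced cells, Fosl2, upwards. That is close to the share over all tested genes, of which 10.5% were called higher and 3.5% lower. The same single member was called against IPTG-treated control cells, where 9.56% of all tested genes were called higher. Both comparisons use the same CAF-1 OFF libraries, and both counts were 0 without any one of several libraries, as given for Fosl2 above. Fos, Junb and Batf had log2 differences from uninduced cells of -0.35 ± 0.42, 0.11 ± 0.14 and -0.05 ± 0.16. Fos and Jun had between 111 and 269 reads in the CAF-1 OFF libraries.

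Between the perturbed groups, 5 of 9 members were lower in CAF-1 OFF than in HOXA9 OFF cells, where 21.4% of all tested genes were called lower. They were Fos (15.4-fold), Jun (6.26-fold), Jund (3.77-fold), Fosl2 (3.69-fold) and Junb (2.27-fold), with edgeR FDR from 0.000135 for Jund to 0.00232 for Jun. Without HOXA9 OFF replicate 2 the Fos and Jun differences were 8.92-fold and 4.12-fold, and without CAF-1 OFF replicate 2 that of Jun was 9.80-fold. Fosb (log2 -1.38 ± 0.61, edgeR FDR 0.0896), Fosl1 (1.91 ± 0.80, FDR 0.0778), Batf (-0.48 ± 0.16, FDR 0.0351, below 1.5-fold) and Batf2 (-0.39 ± 0.46, FDR 0.511) were not called. Fosb was called without CAF-1 OFF replicate 2 (log2 -2.41, FDR 0.0464) and stood at -0.78 without CAF-1 OFF replicate 1. Fosl1 was called without uninduced replicate 2 (FDR 0.0471), by library size alone (log2 2.14, FDR 0.0489) or with only the groups compared in the fit (FDR 0.0404). Batf2 was called without HOXA9 OFF replicate 1 (FDR 0.0330), while the Batf2 difference turned to 0.59 without HOXA9 OFF replicate 2.

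Levels can be set beside each other between genes only per length, so counts were also expressed per kilobase of exon (RPKM). In uninduced cells the order was Batf at 19.2 ± 2.72 RPKM (SD, n = 2), Junb at 14.7 ± 0.70, Jund at 11.3 ± 1.12, Fosl2 at 6.30 ± 0.97, Fos at 3.81 ± 0.87, Jun at 2.31 ± 0.57 and Batf2 at 1.40 ± 0.33. Fosl1, Fosb and Batf3 were under 1 RPKM. Neighbours in this order did not overlap, apart from Fosb and Batf3. In HOXA9 OFF cells Fos came first at 46.1 ± 27.7 RPKM, followed by Fosl2 at 38.9 ± 3.13, Junb at 36.1 ± 6.36 and Jund at 34.3 ± 8.34, and each overlapped the next. Batf at 26.0 ± 1.69 RPKM and Jun at 20.3 ± 9.94 came next and overlapped each other. CAF-1 OFF cells kept Batf and Junb on top, at 18.6 ± 0.95 and 15.9 ± 0.29 RPKM, and Fosl2 at 10.5 ± 0.11 stood above Jund at 9.10 ± 0.20, the reverse of their order in uninduced cells.

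Summed over the class, FOS members made up 11.97 and 8.99 RPKM in uninduced libraries, 12.4 and 9.51 in IPTG-treated control, 14.6 and 13.5 in CAF-1 OFF, and 68.0 and 103.0 RPKM in HOXA9 OFF libraries. JUN members summed to 30.02 and 26.6 RPKM in uninduced, and to 73.3 and 108 RPKM in HOXA9 OFF libraries. BATF members went from 18.5 and 22.8 to 26.7 and 33.0 RPKM between the same groups. The FOS class thus stood 8.16 times, the JUN class 3.20 times and the BATF class 1.45 times its uninduced mean in HOXA9 OFF cells. The JUN to FOS ratio of summed RPKM was 2.51 and 2.96 in uninduced, 2.36 and 2.90 in IPTG-treated control, 1.84 and 2.20 in CAF-1 OFF, and 1.08 and 1.05 in HOXA9 OFF libraries. It was lower in both perturbed groups than in either control library pair, without overlap, and lowest in HOXA9 OFF cells. With 2 libraries a group these sums are given as a description, with no test.

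**Figure D3:**
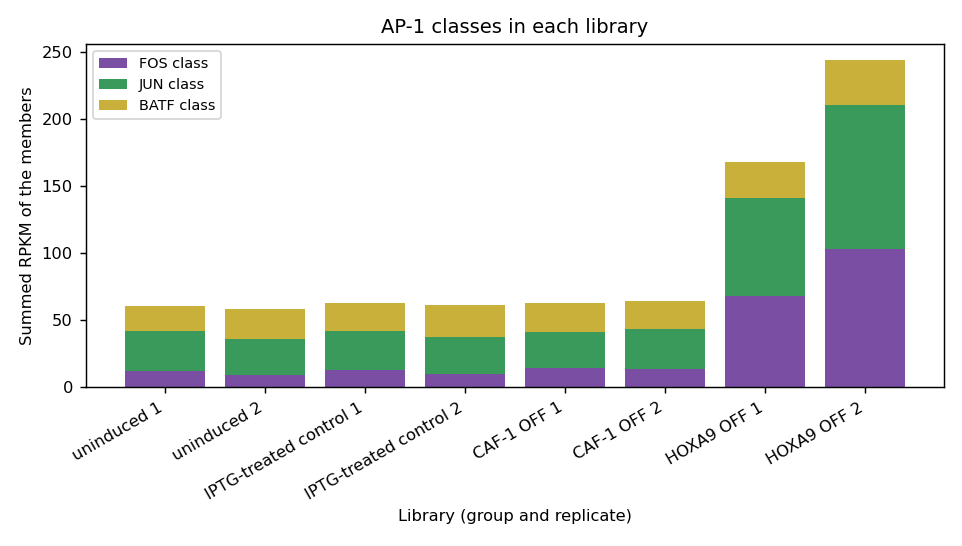
Summed RPKM of the FOS, JUN and BATF classes (stacked bars) in each of the 8 libraries. The family total is 58.4 to 64.4 RPKM in the 6 libraries with active HOXA9, and 168 and 244 RPKM in the HOXA9 OFF libraries.

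Within the FOS class the HOXA9 OFF libraries differed in their lead member. Fosl2 made up 60.4% of the class RPKM in replicate 1 and Fos 39.0%, while in replicate 2 Fos made up 63.7% and Fosl2 35.6%. In uninduced libraries Fosl2 made up 58.4% and 62.5%. Jun rose as a share of its class, from 9.02% and 7.15% in uninduced to 18.1% and 25.3% in HOXA9 OFF libraries.

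HOXA9 OFF replicate 2 was higher than replicate 1 in 7 of the 9 tested members, with a median log2 difference of 0.50, and in 16 of 19 other immediate early genes, with a median of 0.47. Over all tested genes it was higher in 5903 of 13080, with a median of -0.03. In uninduced, IPTG-treated control and CAF-1 OFF pairs the median difference over the members was -0.25, -0.17 and 0.04. Fosl2 moved the other way, at -0.16 in the HOXA9 OFF pair. Heat shock and handling stress genes, such as the chaperones Hspd1 and Hsp90aa1, summed to 797 and 785 CPM in the HOXA9 OFF pair, against 1985 and 2003 CPM in uninduced libraries. Of 7 tested genes of this list 5 fell and 0 rose in HOXA9 OFF, among them Hspd1 by 2.22 log2 units (edgeR FDR 1.26e-05), and 2 fell in CAF-1 OFF, Hspe1 and Hsph1 (0 without uninduced replicate 1 or CAF-1 OFF replicate 2, and 1 without uninduced replicate 2 or by library size alone). What part the difference between the HOXA9 OFF libraries had in the members' levels was not tested beyond leaving each out. What part handling stress had in them was not tested.

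Other immediate early genes rose with the AP-1 members in HOXA9 OFF cells: 16 of 19 tested were higher, 2 lower, and 1 was not called, with a median log2 fold change of 2.13. Zfp36, which encodes an RNA-destabilising protein, went from 3.78 to 94.0 CPM (log2 4.63 ± 0.32, edgeR FDR 2.72e-05). Klf6 and Zfp36l1 rose by 3.39 ± 0.26 and 3.14 ± 0.18. Myc, an early gene that drives proliferation, fell by 2.17 log2 units (edgeR FDR 1.67e-05). In CAF-1 OFF cells 4 of the 19 were higher and 0 lower, namely Trib1, Zfp36l1, Nfkbia and Klf6, with log2 fold changes of 1.29 ± 0.17, 1.16 ± 0.17, 0.95 ± 0.17 and 0.81 ± 0.24. The CAF-1 OFF count was 1 without uninduced replicate 1 or CAF-1 OFF replicate 2, 2 without uninduced replicate 2, and 6 higher and 1 lower without either HOXA9 OFF replicate.

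Upstream of AP-1, 8 of 16 tested kinase genes of the MAP kinase cascades were higher and 1 lower in HOXA9 OFF cells (median log2 fold change 0.70). Mapk3, which encodes ERK1, rose by 1.82 ± 0.10 (edgeR FDR 1.55e-05), Map3k1 by 1.67 ± 0.14, Rps6ka1 by 1.57 ± 0.17 and Map2k4, an activator of JNK, by 1.21 ± 0.12. In CAF-1 OFF cells 4 were higher and 1 lower (median -0.0039), with Map3k5 (ASK1) at 1.03 ± 0.15, Rps6ka3 at 0.83 ± 0.16, Map3k1 at 0.60 ± 0.13 and Mapk8, which encodes JNK1 itself, at -0.62 ± 0.11. No kinase gene was called in CAF-1 OFF cells without uninduced replicate 1 or CAF-1 OFF replicate 2, 2 were higher and 1 lower without uninduced replicate 2, and 1 was higher and 1 lower without CAF-1 OFF replicate 1. Of the MAP kinase phosphatases, which switch the cascades off, 6 of 9 were higher and 2 lower in HOXA9 OFF cells. Dusp1 rose from 3.28 to 34.8 CPM (log2 3.40 ± 0.42, or 2.67 without HOXA9 OFF replicate 2) and Dusp5 by 2.20 ± 0.25, while Dusp6 fell by 2.48 (edgeR FDR 7.72e-05) and Dusp2 by 1.24 log2 units. The count was 3 higher and 2 lower by library size alone, or without uninduced replicate 1 or either IPTG-treated control library. CAF-1 OFF calls numbered 0 of the 9 by edgeR, where 3 had an unadjusted p under 0.05, 1 was called by DESeq2, and 1 was called without either HOXA9 OFF replicate. Serum response factor, which binds the CArG box, and its cofactors had 2 of 6 tested genes higher and 0 lower in HOXA9 OFF cells, Mkl1 (1.48 ± 0.14) and Mkl2 (0.71 ± 0.17), or 1 higher by library size alone or without HOXA9 OFF replicate 2. For CAF-1 OFF, 0 of the 6 were called by edgeR or DESeq2, and 0 had an unadjusted p under 0.05. Srf itself was at 139 CPM in uninduced and 124 CPM in HOXA9 OFF cells (log2 -0.17 ± 0.13, edgeR FDR 0.278).

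Among genes of other bZIP factors, 7 of 13 tested were higher and 1 lower in HOXA9 OFF cells, with 4 higher and 1 lower by library size alone. Jdp2, a JUN partner that represses AP-1 sites, went from 23.6 to 83.7 CPM (log2 1.83 ± 0.16, edgeR FDR 6.48e-05), Mafg rose by 1.11 ± 0.11 and Bach1 by 0.96 ± 0.12, and Creb1 fell by 0.79 log2 units. In CAF-1 OFF cells 1 was higher and 1 lower, Bach1 at 0.77 ± 0.12 and Atf1 at -0.62 ± 0.15. Both calls were lost without uninduced replicate 1 or CAF-1 OFF replicate 2, and 1 of them by library size alone or without uninduced replicate 2, CAF-1 OFF replicate 1 or IPTG-treated control replicate 2. Both IRF partners of BATF rose in HOXA9 OFF cells. Irf8, a monocyte lineage factor, went from 31.5 to 133 CPM (log2 2.08 ± 0.34, edgeR FDR 0.00124), and Irf4 from 0.454 to 52.4 CPM (log2 6.82 ± 0.50, edgeR FDR 3.38e-05, or 7.58 without uninduced replicate 2). After CAF-1 depletion 0 of the 2 were called by edgeR, while 1 had an unadjusted p under 0.05 and was called by DESeq2, and 1 was called without CAF-1 OFF replicate 1. Genes for turnover and cofactors of JUN and FOS had 6 of 13 higher and 1 lower in HOXA9 OFF cells, with Nfatc1 at 1.49 ± 0.14, Itch, a ubiquitin ligase of JUN, at 1.29 ± 0.11, Rfwd2 (COP1), another, at 1.18 ± 0.13 and the coactivator gene Ncoa1 at 1.14 ± 0.13. With CAF-1 OFF, 0 of the 13 were called by edgeR or DESeq2, 5 had an unadjusted p under 0.05, and 1 was called without uninduced replicate 2 or by library size alone.

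**Figure D4:**
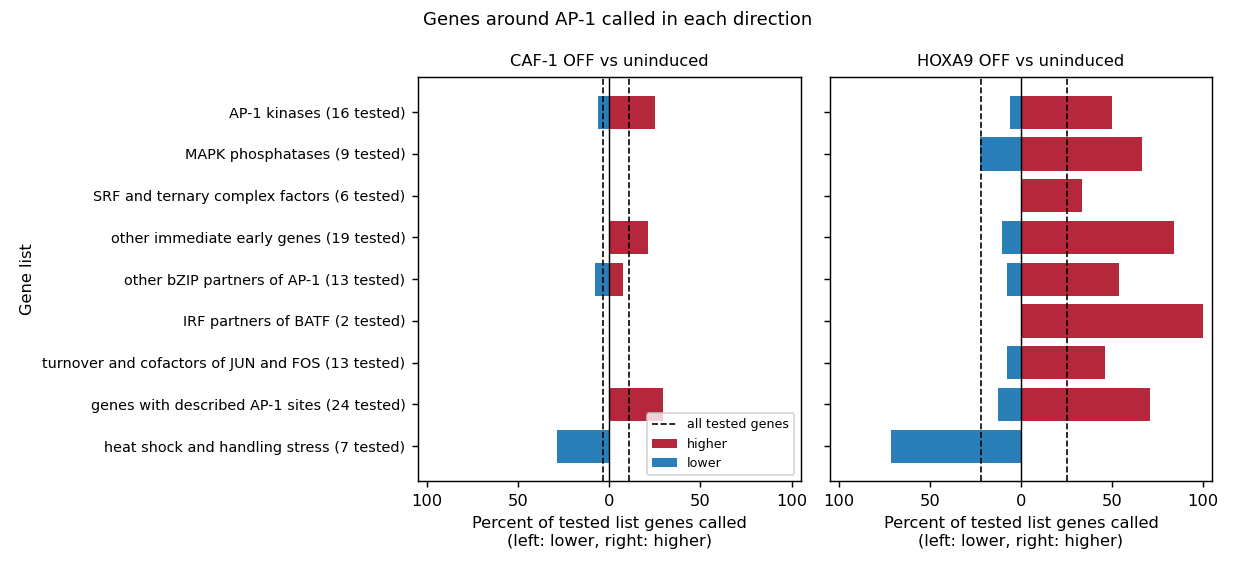
Percent of tested genes called higher (right) and lower (left) against uninduced cells in 9 gene lists around AP-1, for CAF-1 OFF and HOXA9 OFF cells. Dashed lines give the shares over all tested genes, 10.5% higher and 3.5% lower in CAF-1 OFF, and 25.2% higher and 22.1% lower in HOXA9 OFF; the immediate early list reached 16 of 19 higher in HOXA9 OFF.

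Genes with described AP-1 sites, a list from general knowledge whose members other factors regulate as well, had 17 of 24 tested higher and 3 lower in HOXA9 OFF cells (median log2 fold change 3.01). Mmp9, a matrix protease stored in neutrophil granules, went from 1.45 to 247 CPM (log2 7.41 ± 0.54, edgeR FDR 3.16e-05). Spp1 rose by 4.45 ± 0.81, Mmp13 by 4.42 ± 0.93 and Csf1 by 4.24 ± 0.69. These values rested on a wide HOXA9 OFF pair, at 117 and 812 CPM for Spp1, 5.64 and 34.5 CPM for Mmp13 and 63.7 and 316 CPM for Csf1, and without HOXA9 OFF replicate 2 the log2 fold changes were 2.46, 2.59 and 2.67, each still called. Without HOXA9 OFF replicate 1 they were 5.25, 5.19 and 4.98. After CAF-1 depletion 7 of the 24 were higher and 0 lower (median 0.82). Mmp13, a collagenase, rose there by 5.83 ± 0.97 log2 units (edgeR FDR 0.00985, lost without uninduced replicate 1 or 2 or CAF-1 OFF replicate 2, the last giving 5.24), to 53.7 ± 25.6 CPM (SD, n = 2) against 20.1 ± 20.4 in HOXA9 OFF cells, and the difference between these groups was not called (log2 1.42 ± 0.75, edgeR FDR 0.148). Plaur and Thbs1 rose by 1.24 ± 0.23 and 1.13 ± 0.15. The CAF-1 OFF count was 0 without CAF-1 OFF replicate 2, 1 or 3 without uninduced replicate 1 or 2, and 11 without either HOXA9 OFF replicate.

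Markers of mature myeloid cells moved with these groups. In bulk samples fewer cells of a type and less RNA per cell cannot be told apart. All 8 neutrophil markers rose in HOXA9 OFF and 6 of 8 in CAF-1 OFF cells, and their summed level was 96.0 and 94.8 CPM in uninduced, 1281 and 2219 in CAF-1 OFF, and 9053 and 6159 CPM in HOXA9 OFF libraries. Of 5 tested macrophage markers all rose in HOXA9 OFF cells, and Csf1r, the receptor for the growth factor encoded by Csf1, rose in CAF-1 OFF cells (1.69 ± 0.41), a call that was lost without uninduced replicate 1 or 2 or CAF-1 OFF replicate 2, while 2 macrophage markers were called without either IPTG-treated control library and 3 without either HOXA9 OFF library. The macrophage list of 8 summed to 53.8 and 27.8 CPM in uninduced, 50.6 and 79.5 in CAF-1 OFF, and 1008 and 1699 CPM in HOXA9 OFF libraries. In HOXA9 OFF cells 3 macrophage markers were called without uninduced replicate 1, uninduced replicate 2 or HOXA9 OFF replicate 2. HOXA9 OFF replicate 2 thus had the higher macrophage and the lower neutrophil sum of its pair, together with the higher Fos and Jun. Of 8 progenitor markers 5 fell and 0 rose in HOXA9 OFF cells, where the list summed to 7941 and 5807 CPM against 15403 and 11513 CPM in uninduced libraries. What part the makeup of the cells had in the members' changes was not tested.

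The genes whose log2 CPM ran most like a member's over the 8 libraries were, for Fos, Cdc42se2, Ctsa, Vwa5a and Tcf25, with Pearson r from 0.995 to 0.996. For Jun they were Nkiras2, Clec7a, Nptn, Fam49a and Atp6v0e (r from 0.987 to 0.991), and for Batf they were Gpr157, Dync1li2, Klhl26, Rmnd5a and Tmf1 (r from 0.969 to 0.984). The 8 libraries share 4 treatments, and 1133 and 1152 of 9839 genes had an r over 0.9 with Fos and Jun, against 132 with Batf. These values are given as a description over 8 libraries.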

How the data were processed

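RNA was measured by bulk RNA-seq in 8 libraries. Each deposited table holds unnormalized read counts of a single library, listed by gene symbol. By the study's account the authors used STAR on mm9 and HTSeq, without pooling replicates. The library kit was directional, but the strand setting and annotation version are not given in the sources used here. The 5 HTSeq summary rows, among them reads outside genes (5.30% to 14.6%), were kept apart.

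Counts were tested with edgeR 4.0.16 (R 4.3.3). Genes were kept by filterByExpr, libraries were TMM-scaled, and group means were fitted to all 8 by quasi-likelihood. Adjustment was Benjamini-Hochberg over 13080 genes, and a call needed FDR under 0.05 and 1.5-fold. The script was tested on simulated data. With 2 libraries a group, precision rests on a spread shared between genes (biological coefficient of variation 18.9%). log2 CPM used a prior count of 2, and RPKM the exon union in GENCODE vM1 (mm9). Each 50-base window of each member's longest protein-coding transcript was absent from those of other genes. Intervals and floors (3 counts) cover counting error only. Alternatives were DESeq2 1.42.0, its size factors, library size alone, no filter, only the groups compared, a replicate block, leaving out each library, and FDR 0.01 with 2-fold.

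All 10 members are reported. From each list, up to 4 called genes per comparison with uninduced cells are named, with the largest change among those at a mean log2 CPM of at least 2 whose groups do not overlap. Genes like Fos, Jun and Batf are the 5 with the highest Pearson r, of which 1 is not reported here. Srf, Irf4 and the 3 further promoter patterns fall outside that rule and were chosen after their values were seen, as were the leave-one-out values of lists and their genes, the lists' counts by library size alone and the printing of promoters without a planned match. Members and lists were chosen with earlier results of these data known.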

Additional observations from a re-analysis of the deposited data

Results flagged for a closer look

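Reads that fell outside annotated genes, which no comparison above uses, made up a larger share in each of the 3 other groups than in uninduced libraries, whose mean was 5.72% (5.30% to 6.14%). The mean was 10.8% in IPTG-treated control (6.88% to 14.6%), 7.04% in CAF-1 OFF (6.91% to 7.17%) and 7.42% in HOXA9 OFF libraries (7.04% to 7.79%). In IPTG-treated control replicate 1, the library at 14.6%, Fos was at 9.11 CPM and Jun at 9.11 CPM, against 9.20 and 5.95 CPM in replicate 2.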

How the results depend on the processing

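Against uninduced cells, 7 AP-1 members were called in HOXA9 OFF, with 6 or 7 under all 15 alternatives, and 6 of them, all but Batf2, kept their call under each. The Batf2 call was lost by library size alone (log2 1.20, FDR 0.0644) and with only the groups compared in the fit (1.37, FDR 0.0892), and did not pass the stricter limits. In CAF-1 OFF, 1 member was called against uninduced cells, and 0 under the stricter FDR 0.01 and 2-fold. Leaving out 1 library gave 0 to 2. Compared with the IPTG-treated control the count was 1, and 0 under the stricter limits, and leaving out 1 library gave 0 to 1. In IPTG-treated control 0 members were called under every alternative.

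The replicate block called 1, 7, 0, 1 and 5 members in the 5 comparisons, the same counts as without it. In CAF-1 OFF against uninduced cells it called 2 MAP kinase phosphatases, 2 macrophage and 2 progenitor markers, all higher, against 0, 1 and 1 without it. Deviations of same-numbered libraries correlated at -0.04, -0.02 and 0.08 between CAF-1 OFF and the other groups. Among those other groups the correlations were 0.48, 0.30 and 0.32. The numbers thus did not pair the libraries throughout.

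Directions that turned belonged to differences that were not called. Over the alternatives, leave-one-out included, values ran for Fosl1 from -0.49 to 1.46, for Jun from -0.16 to 0.91 and for Batf from -0.19 to 0.10 in CAF-1 OFF against uninduced cells, where without CAF-1 OFF replicate 2 Batf stood at 0.0012. In IPTG-treated control against uninduced cells they ran for Fos from -0.19 to 0.28, for Fosl2 from -0.31 to 0.29, for Jun from -0.31 to 0.31 and for Batf from -2.81e-05 to 0.29. In CAF-1 OFF compared with the IPTG-treated control they ran for Fosb from -0.44 to 1.18 and for Jun from -0.19 to 0.88. Between CAF-1 OFF and HOXA9 OFF cells they ran for Batf2 from -0.97 to 0.59.

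Over all tested genes, the CAF-1 OFF calls against uninduced cells numbered 1836, and 157, 836 and 272 without uninduced replicate 1, uninduced replicate 2 and CAF-1 OFF replicate 2. Against IPTG-treated control cells they numbered 1670, and 237, 295 and 199 without CAF-1 OFF replicate 2 and IPTG-treated control replicates 1 and 2. The stricter limits left 364 of the former, 282 of the latter, 3579 of 6179 for HOXA9 OFF against uninduced cells, and 3008 of 5695 between the perturbed groups. DESeq2 called 4 genes in IPTG-treated control against uninduced cells and edgeR 0. By library size alone, the share of calls that were higher in CAF-1 OFF than in HOXA9 OFF cells moved from 50.9% to 65.7%.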

Other observations

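Markers of further blood lineages were measured beside AP-1. Of 6 tested megakaryocyte or erythroid markers 4 rose in CAF-1 OFF cells (1 without uninduced replicate 1 or 2, and 2 without CAF-1 OFF replicate 2), among them Pf4, a platelet chemokine, from 2.85 to 90.1 CPM (log2 4.98 ± 1.06, edgeR FDR 0.0192, and 4.28 with the call lost without CAF-1 OFF replicate 2), and 3 rose in HOXA9 OFF cells (1 without uninduced replicate 2), among them Gata1 (2.09 ± 0.57, 3.04 without uninduced replicate 1, and not called without uninduced replicate 2 or HOXA9 OFF replicate 1). Of 5 mast cell or basophil markers 2 rose in CAF-1 OFF cells, Mcpt8 (2.95 ± 0.15) and Cpa3 (2.14 ± 0.33), with 1 left without uninduced replicate 1 or 2, and in HOXA9 OFF cells 1 fell, Mcpt8, by 2.26 log2 units. Elane, an enzyme of primary granules, was the one progenitor marker called in CAF-1 OFF cells (1.61 ± 0.42), and the call was lost without uninduced replicate 1 or 2 or CAF-1 OFF replicate 2. Of 4 tested dendritic cell markers 2 rose in HOXA9 OFF cells, neither of them without uninduced replicate 2 or HOXA9 OFF replicate 2, and 1 fell. That was Flt3, also a progenitor marker, which fell from 297 CPM to 9.28 and 2.43 CPM in the HOXA9 OFF libraries (log2 -5.68 ± 0.57, or -6.93 and -5.00 without HOXA9 OFF replicate 1 and 2). In CAF-1 OFF cells 0 were called by edgeR or DESeq2, and 0 had an unadjusted p under 0.05. The single tested T cell marker, Lck, fell in HOXA9 OFF cells, where the list summed to 0.163 and 1.04 CPM. Of 4 tested B cell markers 1 rose in CAF-1 OFF cells, Cd79a (2.82 ± 0.41, not called without uninduced replicate 1 or CAF-1 OFF replicate 2), which also rose in HOXA9 OFF cells (1.46 ± 0.40, or 0.78 without HOXA9 OFF replicate 2, and not called without it or either uninduced replicate), where 2 fell, among them Ebf1 by 6.38.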
